A study of Rattus norvegicus with 6 samples.

Results

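The 10 metalloproteases described here are Adamts1, Adamts2, Adamts4, Adamts5, Adamts9, Adam8, Adam10, Adam12, Adam15 and Adam17. They were taken as the rows of the expression table whose gene symbol equals 1 of these names, which gave 10 of 19616 genes, 5 of them ADAM and 5 of them ADAMTS genes. RNA sequencing compared fibrotic with normal liver of male SD rats, 3 in each group and 1 library per rat. Rats FL2, FL5 and FL12 of the liver fibrosis group (FL) were given intraperitoneal CCl4 (carbon tetrachloride, a hepatotoxic solvent) mixed with olive oil, at 2 mL per kg of body weight, with 2 injections a week over 5 weeks. Rats CL5, CL6 and CL7 of the control group (CL) were given an equal volume of olive oil. How these rats were picked from the larger groups of the experiment, and their age, was not given in the sources used here. Expression was measured as FPKM, the fragments of a gene scaled to the length of its transcript and to the mapped fragments of the library, so that levels of different genes can be compared per length. The number of reads behind a value was not known, and the commonest value above 0 among 114 genes of the small U6 RNA, taken as the worth of 1 read, gave only relative depth. It was 0.21, 0.32 and 0.25 FPKM for rats CL5, CL6 and CL7, and 0.31, 0.28 and 0.31 FPKM for FL2, FL5 and FL12, so CL5 was the deepest library. Values of single rats are given below in this order throughout.

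ADAM proteases are membrane-anchored enzymes that cut the extracellular part off other membrane proteins, a step called shedding, which releases cytokines and growth factors and starts Notch signalling. ADAMTS proteases are secreted, bind the extracellular matrix through thrombospondin repeats, and either trim procollagen so that it can form fibrils or cut large proteoglycans such as versican. In injured liver both groups are made by stellate cells, macrophages, endothelial cells and hepatocytes to differing degrees, and tissue inhibitors of metalloproteinases hold several of them in check.

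Among the 10 proteases, Adamts2, Adam10 and Adam17 rose in the FL group, Adamts2 alone by more than 2-fold, and Adam17 only where no scaling between rats was applied. All 10 reached the mean of 0.1 FPKM required for testing, and the lowest group mean was 0.130 FPKM, for Adam8 in the CL group, so no gene was tested through its FL values alone. A gene was counted as differentially expressed (DEG) at an adjusted p under 0.05 in limma, with Benjamini-Hochberg adjustment over all 14864 genes tested, and a difference of at least 2-fold. By that rule 1 of the 10 was upregulated, where 9.29% of all genes tested were, and 0 were downregulated, where 0.935% of all genes were. Without the fold limit 3 of the 10 rose, beside 16.9% of all genes, and 0 fell, beside 1.94%. At an unadjusted p under 0.05 in limma, 5 of the 10 were higher, beside 31.5% of all genes, and 0 were lower, beside 4.04%. In 5 of the 10 every FL rat was above every CL rat, which held for 35.7% of all genes tested. The share of DEGs is that of the whole table, and from the other shares nothing is read about the proteases as a group.

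The median log2 difference of the 10 genes was 0.56, beside 0.29 for all genes tested, so the 10 genes lay 0.27 above that median. All 10 differences were above 0 before any scaling between rats, as were 77.9% of those of all genes. Median scaling left 9 of the 10 above 0, beside 57.9% of all genes, and quantile normalization 6, beside 45.5%. Median scaling moved the median of all genes to 0.079 and quantile normalization to -0.045, and the 10 genes then lay 0.26 and 0.25 above it. With a pseudocount of 1 they lay 0.14 above the median of all genes, and at a mean of at least 1 FPKM the 6 of them still tested lay 0.43 above it, a set that Adamts2 entered only through its FL values. Across all genes, DEGs numbered 1381 upregulated and 139 downregulated, and 453 and 231 after quantile normalization. The share of all genes upregulated, 9.29%, was itself different in other fits. It was 5.56% after median scaling, 3.05% after quantile normalization, 3.11% with a pseudocount of 1 and 12.3% without FL2. Without CL5, CL6, CL7, FL5 or FL12 it was 6.20%, 6.47%, 4.82%, 4.59% or 6.02%, and counts below from those fits stand beside these shares. Log2 differences are FL minus CL on the scale of log2(FPKM + 0.1), which understates the change of genes with low values.

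Adam10 and Adam17 had the highest levels in both groups. In the CL group the mean levels ran from Adam10 (5.70 FPKM) through Adam17 (5.04), Adamts1 (2.36), Adam15 (2.03), Adamts9 (1.62), Adamts2 (0.717), Adamts5 (0.670), Adam12 (0.593) and Adamts4 (0.157) to Adam8 (0.130). The ranges of the CL rats did not overlap between Adam10 and Adam17, Adam17 and Adamts1, Adamts9 and Adamts2, or Adam12 and Adamts4, while the other neighbours in that order overlapped. In the FL group the order was Adam10 (9.84 FPKM), Adam17 (7.87), Adamts2 (5.50), Adamts1 (3.95), Adam15 (2.96), Adamts9 (2.15), Adamts5 (0.837), Adam12 (0.667), Adam8 (0.380) and Adamts4 (0.207). Adamts2 moved from the sixth place to the third, and only Adam17 with Adamts2 and Adamts9 with Adamts5 were neighbours without overlap. Summed over the 10 genes, expression was 18.4, 19.2 and 19.5 FPKM in the CL rats and 26.5, 38.0 and 38.6 FPKM in the FL rats.

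**Figure D1:**
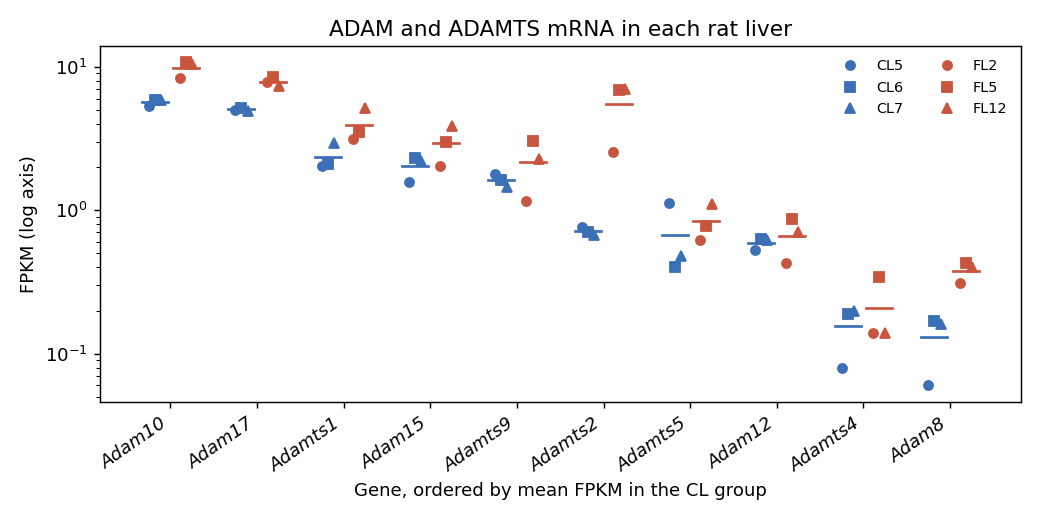
FPKM on a log axis of the 10 ADAM and ADAMTS genes in each CL rat (blue) and FL rat (red), ordered by the CL mean, with short lines at the group means. Adamts2 lies between 0.67 and 0.77 FPKM in the CL rats and between 2.54 and 7.03 FPKM in the FL rats.

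Adamts2 encodes the main procollagen N-proteinase, which removes the amino-terminal propeptide of fibrillar procollagens. Its level was 0.77, 0.71 and 0.67 FPKM in the CL rats, and 2.54, 6.94 and 7.03 FPKM in the FL rats. The CL rats lay close together, the FL rats were all higher, and FL2 stood well below the other two FL rats. Group means were 0.717 ± 0.0503 FPKM (SD, n = 3) and 5.50 ± 2.57 FPKM (SD, n = 3). The log2 difference was 2.64 with a standard error of 0.37 and a 95% interval from 1.79 to 3.50, and the adjusted p from limma was 0.00499. Relative to the median of all genes the difference was 2.36. Adamts2 stayed a DEG under each of the 14 other fits, with an adjusted p between 0.000643 and 0.0302. In 1 of these fits, with the filter at 1 FPKM, Adamts2 was tested only through its FL values, so that fit is no further support. In bulk liver, fewer cells of a type and less RNA per cell cannot be told apart, and the same holds for more cells and more RNA per cell.

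The other procollagen N-proteinases, Adamts3 and Adamts14, were expressed at lower levels. Adamts14 showed 0.21, 0.19 and 0.19 FPKM in the CL rats and 0.39, 0.86 and 0.56 FPKM in the FL rats, without overlap, and was upregulated (log2 difference 1.19, standard error 0.33, adjusted p = 0.0439). That call was lost when any rat but FL2 was left out (adjusted p between 0.0945 without FL12 and 0.129 without CL7). It was also lost after median scaling (0.0774) or quantile normalization (0.232), with no filter (0.0598) and with a pseudocount of 1 (0.0573), in a range of 0.0216 to 0.232. Adamts3 stayed at or below 0.3 FPKM in each rat and did not pass (adjusted p = 0.107), and with a CL mean of 0.050 FPKM it was tested only through its FL values. In limma without trend Adamts3 was called a DEG. Of the summed FPKM of Adamts2, Adamts3 and Adamts14, Adamts2 held 77.8%, 72.4% and 72.8% in the CL rats and 83.0%, 85.7% and 89.6% in the FL rats. Adamts2 was therefore the most abundant of these N-proteinase mRNAs in every rat.

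Of the 4 tested genes in the list of other procollagen-processing enzymes and enhancers, which includes Adamts3 and Adamts14, 2 were upregulated and 0 downregulated, beside 9.29% and 0.935% of all genes, with a median log2 difference of 1.16. That count of 2 became 1 after either scaling, with no filter (beside 6.32% of all genes), with a pseudocount of 1 and without any rat but FL2. In limma without trend it was 3, beside 8.83% of all genes. Pcolce, which enhances removal of the carboxy-terminal propeptide, showed 2.59, 4.12 and 5.20 FPKM in the CL rats and 44.8, 19.0 and 29.8 FPKM in the FL rats (log2 difference 2.91, adjusted p = 0.00339). Its highest value was in FL2, the FL rat with the lowest Adamts2. Bmp1, the protease that makes that carboxy-terminal cut, lay between 18.4 and 22.0 FPKM in the CL rats and between 23.3 and 24.3 FPKM in the FL rats. Those ranges did not overlap, but the difference did not pass (log2 difference 0.27, adjusted p = 0.129). Tll1 and Tll2 were too low to test, and Mep1a, Mep1b and Pcolce2 were not found by symbol.

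Col3a1 and Col1a1, which encode procollagen substrates of Adamts2, had higher levels than the enzyme in every rat. Col3a1 showed 46.5, 51.8 and 48.7 FPKM in the CL rats and 140.5, 342 and 339 FPKM in the FL rats (log2 difference 2.37, adjusted p = 0.00490). Col1a1 showed 2.12, 3.77 and 2.12 FPKM in the CL rats and 17.0, 101 and 73.7 FPKM in the FL rats (log2 difference 4.24, adjusted p = 0.00519). FL2 was the lowest FL rat for both collagens, as for Adamts2. Per 100 FPKM of Col3a1, Adamts2 stood at 1.65, 1.37 and 1.38 FPKM in the CL rats and at 1.81, 2.03 and 2.08 FPKM in the FL rats. Per 100 FPKM of Col1a1 it stood at 36.3, 18.8 and 31.6 FPKM in the CL rats and at 14.9, 6.86 and 9.53 FPKM in the FL rats. The first ratio was higher and the second lower in every FL rat than in every CL rat, and these ratios, which were not tested, were chosen after the values were seen.

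Adam10 and Adam17 encode the major sheddases. Adam10 cuts Notch receptors, cadherins and the amyloid precursor protein, and its level was 5.37, 5.86 and 5.86 FPKM in the CL rats and 8.36, 10.7 and 10.4 FPKM in the FL rats. The groups did not overlap, and the 3 CL rats were nearly alike. The log2 difference was 0.77 with a standard error of 0.13 and a 95% interval from 0.46 to 1.08, and the adjusted p from limma was 0.00985. Adam10 therefore rose by 1.71-fold, under the 2-fold limit of a DEG, and its adjusted p was between 0.00551 and 0.0459 over the 14 other fits.

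Adam17, also called the tumour necrosis factor converting enzyme, showed 5.01, 5.19 and 4.93 FPKM in the CL rats and 7.78, 8.43 and 7.39 FPKM in the FL rats. The groups did not overlap, and here FL12, not FL2, was the lowest FL rat. The log2 difference was 0.63 with a standard error of 0.12 and a 95% interval from 0.36 to 0.90, with an adjusted p of 0.0112. Adam17 rose by 1.55-fold, but did not pass after median scaling (adjusted p = 0.0507) or quantile normalization (adjusted p = 0.0917), and the range over the other fits was 0.00821 to 0.0917. Relative to the median of all genes the difference was 0.34 for Adam17 and 0.48 for Adam10. The ratio of Adam10 to Adam17 was 1.07, 1.13 and 1.19 in the CL rats and 1.07, 1.27 and 1.41 in the FL rats, so the groups overlapped in it.

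Among 26 tested membrane proteins known to be shed by Adam10 or Adam17, 6 were upregulated and 0 downregulated, beside 9.29% and 0.935% of all genes, and the median log2 difference of the list was 0.32, close to the 0.29 of all genes. Without the fold limit 9 rose and 1 fell, beside 16.9% and 1.94%. At an unadjusted p under 0.05 in limma, 11 were higher and 3 lower, beside 31.5% and 4.04% of all genes. In 12 every FL rat was above every CL rat and in 3 below, beside 35.7% and 4.78%. The count of 6 became 5 after median scaling and 4 after quantile normalization. It was 8 with a pseudocount of 0.01, beside 9.6% of all genes, and 5 with a pseudocount of 1 and without CL6 or CL7. At a mean of at least 1 FPKM it was 5 of 21, beside 8.11%, with Trem2 and Cd44 tested only through their FL values. Trem2, a lipid receptor of macrophages, showed 0.06, 0.12 and 0.07 FPKM in the CL rats and 2.30, 5.32 and 4.76 FPKM in the FL rats (log2 difference 4.46, adjusted p = 0.00102). Its CL mean of 0.0833 FPKM was below the filter, so it was tested only through its FL values, and 5 of the 6 DEGs were not. Cd44, a hyaluronan receptor, was between 0.55 and 1.07 FPKM in the CL rats and between 2.93 and 4.79 FPKM in the FL rats (log2 difference 2.23, adjusted p = 0.00414). Cx3cl1, a membrane-bound chemokine, was at or below 0.21 FPKM in the CL rats and between 0.5 and 1.98 FPKM in the FL rats (log2 difference 1.99, adjusted p = 0.0226). Its call was lost when any CL rat or FL5 was left out (adjusted p between 0.0560 without CL6 and 0.0823 without CL7), after quantile normalization (0.0746) and with a pseudocount of 1 (0.0501), in a range of 0.00970 to 0.0823. Sdc4, a heparan sulfate proteoglycan named here after its values were seen, was the gene that fell at an adjusted p under 0.05. It went from 83.5, 94.2 and 111 FPKM in the CL rats to 48.7, 58.0 and 59.1 FPKM in the FL rats (log2 difference -0.80, adjusted p = 0.0119). After median scaling Sdc4 fell by more than 2-fold (log2 difference -1.02, adjusted p = 0.00890, range 0.00890 to 0.0484), so 1 gene of the list was then downregulated. Of all 14864 genes 181 were downregulated in that fit, and 139 without scaling. Hbegf, an epidermal growth factor receptor ligand, stayed between 0.1 and 0.23 FPKM over all 6 rats (log2 difference -0.29, adjusted p = 0.612). Areg and Ereg were too low to test, and Tnf and Epgn were not found by symbol.

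Of 16 tested genes that act in the maturation, transport or docking of these proteases, 4 were upregulated and 0 downregulated, beside 9.29% and 0.935% of all genes, with a median log2 difference of 0.41. Rhbdf2, an inactive rhomboid protein that carries Adam17 to the cell surface, showed 0.53, 0.78 and 0.96 FPKM in the CL rats and 2.76, 2.21 and 2.41 FPKM in the FL rats (log2 difference 1.61, adjusted p = 0.00576), and rose by less than 2-fold with a pseudocount of 1 (0.98). Its partner Frmd8, named after its values were seen, was between 0.93 and 1.33 FPKM in the CL rats and between 2.31 and 3.33 FPKM in the FL rats (log2 difference 1.12, adjusted p = 0.0131). Frmd8 was no longer called without CL7 (adjusted p = 0.0535) or after quantile normalization (0.0693), in a range of 0.0107 to 0.0693. Its log2 difference was under 1 without FL12 (0.97), after median scaling (0.91) and with a pseudocount of 1 (0.76). Tspan5, a tetraspanin that brings Adam10 out of the endoplasmic reticulum, was between 0.35 and 0.49 FPKM in the CL rats and between 0.95 and 1.58 FPKM in the FL rats (log2 difference 1.31, adjusted p = 0.0147), and was not called without CL7 (adjusted p = 0.0626) or FL5 (0.0584) or after quantile normalization (0.0872), in a range of 0.0125 to 0.0872, nor with a pseudocount of 1 (log2 difference 0.63). Sh3pxd2b, an adaptor of invadopodia, had 0.11, 0.34 and 0.60 FPKM in the CL rats and 2.15, 2.14 and 2.76 FPKM in the FL rats (log2 difference 2.60, adjusted p = 0.00729). Sdc4, which is also in this list, was again the gene with a fall at an adjusted p under 0.05. After median scaling it was a downregulated DEG, beside 181 of all 14864 genes. The count of 4 upregulated genes became 3 after median scaling or without FL5 or FL12, 2 without CL7 or after quantile normalization, and 1 with a pseudocount of 1, while the share of all genes also fell in each of these fits (to between 3.05% and 6.02%).

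Adamts1, Adamts4, Adamts5 and Adamts9 cut proteoglycans, and none of these 4 passed the test. Adamts1 came nearest, with 2.05, 2.09 and 2.95 FPKM in the CL rats and 3.13, 3.51 and 5.20 FPKM in the FL rats. Its groups did not overlap, although CL7 and FL2 lay close together. The log2 difference was 0.70 (standard error 0.23, 95% interval 0.17 to 1.24), with an adjusted p of 0.0704 that became 0.0482 without FL2, in a range of 0.0482 to 0.406 over the other fits. Adamts9 showed 1.79, 1.63 and 1.45 FPKM in the CL rats and 1.16, 3.03 and 2.27 FPKM in the FL rats, so FL2 was below every CL rat. Its log2 difference was 0.29 (95% interval -0.44 to 1.03, adjusted p = 0.539), and it ran from 0.0087 without FL5 to 0.67 without FL2, where the adjusted p was 0.0527 in a range of 0.0527 to 0.989.

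Adamts5, an aggrecanase, showed 1.13, 0.40 and 0.48 FPKM in the CL rats and 0.62, 0.78 and 1.11 FPKM in the FL rats. CL5 held the highest value of all 6 rats, and the groups overlapped (log2 difference 0.37, 95% interval -0.52 to 1.26, adjusted p = 0.525). Without CL5 its log2 difference was 0.77 and without CL6 0.12. Adamts4, the other classical aggrecanase, showed 0.08, 0.19 and 0.20 FPKM in the CL rats and 0.14, 0.34 and 0.14 FPKM in the FL rats (log2 difference 0.23, 95% interval -0.76 to 1.22, adjusted p = 0.724). Both intervals are wide enough to hold a 2-fold increase, so an increase of that size could not be told from none. Adamts4 turned to a log2 difference of -0.0060 without CL5 and -0.060 without FL5, and Adamts4, Adamts5 and Adamts9 all turned below 0 after quantile normalization.

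Of the 5 tested genes in the list of proteoglycans, procollagens and other ADAMTS substrates, 3 were upregulated and 0 downregulated, beside 9.29% and 0.935% of all genes, with a median log2 difference of 1.80. Besides Col1a1 and Col3a1 the third was Vcan, the versican core protein, at 0.09, 0.18 and 0.09 FPKM in the CL rats and 0.48, 0.82 and 0.70 FPKM in the FL rats (log2 difference 1.80, standard error 0.34, adjusted p = 0.0123). Every FL rat was above every CL rat for Vcan, but its adjusted p was 0.0525 without CL7 and 0.0525 without FL5, in a range of 0.0111 to 0.0525, and with a pseudocount of 1 its log2 difference was 0.57. Acan, the aggrecan core protein, was at 0 in all CL rats, and it, Bcan and Col1a2 were too low to test. Ncan was not found by symbol.

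Adam8, Adam12 and Adam15 are further membrane-anchored members, and none of them passed the test. Adam8, a protease of leukocytes, showed 0.06, 0.17 and 0.16 FPKM in the CL rats and 0.31, 0.43 and 0.40 FPKM in the FL rats. The groups did not overlap at these low levels, and the log2 difference was 1.09 (standard error 0.36, 95% interval 0.26 to 1.93, adjusted p = 0.0714). Without a trend in the prior variance limma gave Adam8 an adjusted p of 0.0354 and so called it a DEG, in a range of 0.0354 to 0.373 over the other fits. Adam15, found in endothelial and epithelial cells, showed 1.58, 2.31 and 2.20 FPKM in the CL rats and 2.02, 2.98 and 3.89 FPKM in the FL rats, with overlap through FL2 (log2 difference 0.49, 95% interval -0.10 to 1.09, adjusted p = 0.209). With a rat left out its log2 difference ran from 0.28 without FL12 to 0.74 without FL2. After quantile normalization it was 0.086 (adjusted p = 0.841). Adam12, known for its expression in activated stellate cells, showed 0.53, 0.63 and 0.62 FPKM in the CL rats and 0.43, 0.87 and 0.70 FPKM in the FL rats. FL2 was below every CL rat, the log2 difference of Adam12 was 0.10 (95% interval -0.56 to 0.77, adjusted p = 0.819), and it turned to -0.087 without FL5 and to -0.091 after median scaling.

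FL2 was the lowest FL rat for 8 of the 10 genes and the highest for 0 of them. FL5 was highest for 6 and FL12 for 4, and Adamts4 was equal in FL2 and FL12. The same counts over all genes tested are not given here, so nothing is read from them about these genes. Leaving out FL2 raised the log2 difference of Adamts2 to 3.12, and leaving out FL5 or FL12 gave 2.41 or 2.40.

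Endogenous inhibitors of these proteases were also measured, and 3 of 6 tested were upregulated and 0 downregulated, beside 9.29% and 0.935% of all genes, with a median log2 difference of 1.30. Timp3, which inhibits Adam17 and several ADAMTS proteases, showed 2.39, 4.15 and 3.07 FPKM in the CL rats and 5.30, 6.29 and 11.2 FPKM in the FL rats (log2 difference 1.18, standard error 0.30, adjusted p = 0.0324). Its call was lost without CL5 (adjusted p = 0.0997), CL7 (0.105), FL5 (0.0834) or FL12 (0.0748), and after median scaling (0.0663) or quantile normalization (0.10). It was also lost in limma without trend (0.0641), with no filter (0.0534) and with a pseudocount of 1 (log2 difference 0.99), and the adjusted p ran from 0.0236 to 0.105. Timp2 was between 4.51 and 5.88 FPKM in the CL rats and between 9.07 and 16.7 FPKM in the FL rats (log2 difference 1.32, adjusted p = 0.00984), with an adjusted p of 0.0502 without FL5 in a range of 0.00266 to 0.0502. A2m, a plasma protein that traps proteases, was between 0.56 and 0.59 FPKM in the CL rats and showed 10.5, 2.46 and 3.86 FPKM in the FL rats (log2 difference 2.81, adjusted p = 0.00789). Timp1, an inhibitor of Adam10, showed 0.72, 2.93 and 1.33 FPKM in the CL rats and 2.74, 4.81 and 3.59 FPKM in the FL rats. CL6 lay above FL2, and Timp1 did not pass (log2 difference 1.29, adjusted p = 0.0795), except without CL6 (adjusted p = 0.0274) in a range of 0.0274 to 0.228. The count of 3 upregulated inhibitors became 1 without FL5, 2 without CL5, CL7 or FL12 or after either scaling, and 4 without CL6 or FL2, beside 4.59% of all genes without FL5, 6.47% without CL6 and 12.3% without FL2.

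The table held 40 ADAM, ADAMTS and ADAMTS-like genes, the 10 proteases included, of which 32 could be tested and 8 were too low. Of the 32, 7 were upregulated, beside 9.29% of all genes, and 0 downregulated. At an unadjusted p under 0.05 in limma 17 were higher, beside 31.5% of all genes, and 0 lower, beside 4.04%. In 5 of the 32 the CL mean was below the filter, so they were tested only through their FL values, and these included 1 of the 7 DEGs (Adamts19) and 3 of the 17. In addition to Adamts2 and Adamts14, the upregulated genes were Adam19, Adamts10, Adamts12, Adamts19 and Adamtsl2. Adamtsl2, a matrix glycoprotein without protease activity that binds latent TGF-beta binding protein, showed 2.19, 2.27 and 1.81 FPKM in the CL rats and 8.88, 17.0 and 25.8 FPKM in the FL rats. Its log2 difference of 2.86 (standard error 0.34, adjusted p = 0.00368) was the largest of the 32, followed by that of Adamts2, and both stayed DEGs under each of the 14 other fits. With a pseudocount of 0.01 that order did not hold, as Adamts19 (log2 difference 2.93) lay above Adamtsl2 (2.91) and Adamts2 (2.78).

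Adamts10, a protease of fibrillin microfibrils, rose from between 2.20 and 2.78 FPKM to between 4.20 and 6.53 FPKM (log2 difference 1.14, adjusted p = 0.00927), but by less than 2-fold after median scaling (0.92), after quantile normalization (0.79) and with a pseudocount of 1 (0.92). Adamts12 rose from between 1.29 and 1.46 FPKM to between 2.44 and 4.47 FPKM (log2 difference 1.26, adjusted p = 0.0111), and had an adjusted p of 0.0539 without FL5 in a range of 0.00399 to 0.0539. It rose by less than 2-fold with a pseudocount of 1 (0.90) and after quantile normalization (0.84). Adam19 rose from between 0.68 and 1.06 FPKM to between 1.71 and 2.33 FPKM (log2 difference 1.10, adjusted p = 0.0161). It did not pass without CL7 (adjusted p = 0.0588), FL12 (0.0574) or FL5 (0.0699) or after quantile normalization (0.0911), in a range of 0.0156 to 0.0911, and was under 2-fold after median scaling (0.90) and with a pseudocount of 1 (0.68). Adamts19 was at or below 0.06 FPKM in the CL rats and between 0.22 and 0.59 FPKM in the FL rats (log2 difference 1.73, adjusted p = 0.0277). Its CL mean was 0.0400 FPKM, so it was tested only through the group in which it was high. Leaving out any rat but FL2 ended its call (adjusted p between 0.0656 without FL12 and 0.0753 without CL5), as did quantile normalization (0.0922) and a pseudocount of 1 (log2 difference 0.41), in a range of 0.0171 to 0.0922. The count of 7 became 4 without CL7 (beside 4.82% of all genes), 3 without FL5 (4.59%) and 9 without FL2 (12.3%). It was 4 after median scaling (5.56%) and 2 with a pseudocount of 1 (3.11%) or after quantile normalization (3.05%), so in these 6 fits the calls of the whole table fell or rose with those of the family. In limma without trend the family count rose to 9 while the share of all genes fell to 8.83%.

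Another 5 genes rose by less than 2-fold, namely Adam10, Adam17, Adam9, Adam23 and Adamts7, the last pair named after their values were seen. Adam9 had the highest mean level of the 40 genes in the CL group and over all 6 rats, while Adamtsl2 was higher in the mean of the FL group. Adam9 showed 9.43, 10.1 and 8.97 FPKM in the CL rats and 13.1, 15.7 and 16.0 FPKM in the FL rats (log2 difference 0.64, adjusted p = 0.0128). Its adjusted p ran from 0.00791 to 0.0569 over the other fits and was above 0.05 without CL7 or FL5. Adam23 had a log2 difference of 0.66 (adjusted p = 0.0162, range 0.0129 to 0.142) and Adamts7 of 0.82 (adjusted p = 0.0486, range 0.0394 to 0.281), and leaving out CL5, CL6, CL7 or FL5 (and FL2 for Adamts7) raised the adjusted p of each above 0.05. Adam23 also did not pass after median scaling (adjusted p = 0.0907) or quantile normalization (0.142). Adamts7 did not pass after median scaling (0.140) or quantile normalization (0.281), without trend (0.0798), with no filter (0.0735) or with a pseudocount of 1 (0.0535), and was a DEG without FL12 (log2 difference 1.03, adjusted p = 0.0394). Adamtsl4, also among the most abundant, did not pass (log2 difference 0.29, adjusted p = 0.153). Over the 32 genes the median log2 difference was 0.65, 29 differences were above 0, beside 77.9% of those of all genes, and median scaling left 27 and quantile normalization 20 above 0, beside 57.9% and 45.5%.

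**Figure D2:**
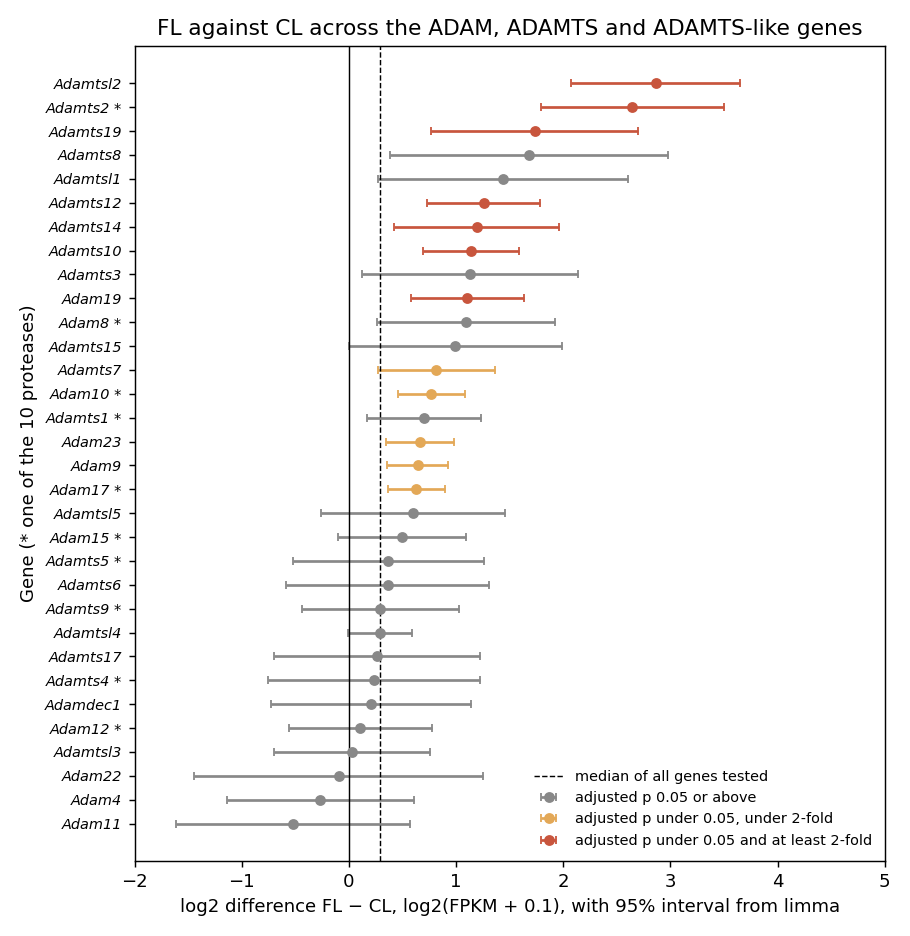
Log2 difference of FL minus CL with its 95% interval from limma for the 32 tested ADAM, ADAMTS and ADAMTS-like genes, coloured by whether a gene passed the adjusted p alone or also the 2-fold limit. Adamtsl2 (2.86) and Adamts2 (2.64) lie farthest to the right of the dashed median of all genes at 0.29, and 29 values are above 0, against 27 after median scaling and 20 after quantile normalization.

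Over the 6 rats, the genes with the pattern most like that of Adamts2 among 10520 genes outside the ADAM and ADAMTS family averaging 1 FPKM or more were Col3a1, Fkbp10 and Eln. Likeness was the root mean square difference of log2(FPKM + 0.1) after centring each gene on its mean, and it was 0.17, 0.18 and 0.18. Fkbp10, a collagen chaperone, showed 0.34, 0.26 and 0.25 FPKM in the CL rats and 0.96, 2.55 and 2.41 FPKM in the FL rats. Eln, the elastin gene, showed 2.28, 2.69 and 2.65 FPKM in the CL rats and 8.36, 18.6 and 25.9 FPKM in the FL rats. Fkbp10 had a CL mean of 0.283 FPKM and so reached the mean of 1 FPKM only through its FL values.

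Markers of liver cell types were read beside the proteases, and their counts of upregulated genes stand beside 9.29% of all genes. Hepatocyte markers were abundant, as the label of the tissue has it, led by Alb, and summed to 44547, 42159 and 42681 FPKM in the CL rats and 33305, 35609 and 34801 FPKM in the FL rats. Of their 9 rows 0 were DEGs in limma, with 2 higher and 0 lower at an unadjusted p under 0.05, beside 31.5% and 4.04% of all genes, and 1 higher and 2 lower in limma without trend. None was a DEG in any other fit, except 1 upregulated without FL2. In 3 of the 9, Alb, Ttr and Hnf4a, named after their values were seen, every FL rat was below every CL rat, beside 4.78% of all genes tested. The other 6 rows had differences above 0, in 1 of them, Apoa1, with every FL rat above every CL rat. The 2 rows higher at an unadjusted p were Apoa1 (log2 difference 0.73, adjusted p = 0.1001) and Tat (0.80, adjusted p = 0.0980), also named after their values were seen. Apoa1 rose, by less than 2-fold, without FL2 (adjusted p = 0.0218), without trend (0.0397), with a robust prior (0.0424) and at a mean of at least 1 FPKM (0.0478), in a range of 0.0218 to 0.306, and Tat was a DEG without FL2 (log2 difference 1.09, adjusted p = 0.0250, range 0.0250 to 0.243). Group means of Alb were 32272 ± 1010 FPKM for CL and 24803 ± 572 FPKM for FL (SD, n = 3 each). Limma with trend gave its log2 difference of -0.38 a standard error of 0.98 (adjusted p = 0.804), and without trend the adjusted p was 0.0789, in a range of 0.0789 to 0.952, so the count of 0 does not show that hepatocyte markers did not differ. Quantile normalization turned the difference of Alb to 0.49. Of the stellate cell and myofibroblast markers 6 of 10 were upregulated, with sums of 53.8, 47.1 and 43.8 FPKM in the CL rats and 99.2, 255 and 193 FPKM in the FL rats. The most abundant of them was Tagln in each CL rat, Rgs5 in FL2 and Col1a1 in FL5 and FL12. Col1a1 is also in the substrate list. Macrophage markers had 4 of 10 upregulated, with sums of 159, 151 and 157 FPKM in the CL rats and 347, 337 and 224 FPKM in the FL rats, led by Clec4f in each CL rat and FL5, Marco in FL2 and Lyz2 in FL12. Without the 4 upregulated genes the sums were 127, 111 and 123 FPKM in the CL rats and 191, 196 and 111 FPKM in the FL rats, so that FL12 lay among the CL rats.

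Neutrophil markers had 3 of 5 tested upregulated and summed to 0.41, 1.07 and 1.26 FPKM in the CL rats and to 5.56, 2.39 and 4.91 FPKM in the FL rats. S100a8 was the most abundant of them in every rat but CL5, where Mmp8 was, and Mpo and Elane were at 0 in all CL rats. Endothelial markers, led by Kdr in every rat but FL12, where Lyve1 led, had 1 of 6 upregulated and sums of 73.7, 72.2 and 64.8 FPKM in the CL rats and 88.9, 75.5 and 83.4 FPKM in the FL rats. Pecam1 was not found by symbol. Cholangiocyte markers had 1 of 6 upregulated, Spp1, with sums of 5.75, 10.6 and 6.32 FPKM in the CL rats, led by Epcam, and 12.7, 68.7 and 42.4 FPKM in the FL rats, led by Spp1. Without Spp1 the sums were 5.38, 7.75 and 5.58 FPKM in the CL rats and 5.38, 8.06 and 11.3 FPKM in the FL rats, and 2 of the 6 differences were below 0. For lymphocyte markers, led by Cd4, 1 of 8 was upregulated, and sums were 12.3, 10.2 and 10.8 FPKM in the CL rats and 22.6, 29.8 and 23.9 FPKM in the FL rats. Cd4 was the upregulated gene, and without it the sums were 2.38, 1.97 and 2.55 FPKM in the CL rats and 4.39, 5.90 and 2.54 FPKM in the FL rats, with overlap. Which cells the Cd4 transcripts came from was not tested. Without their upregulated genes the sums of endothelial and cycling markers also overlapped between the groups, and those of stellate cell and neutrophil markers did not. For cycling cells, led by Mki67 in every rat but CL7, where Top2a led, 1 of 6 was upregulated, with sums of 2.83, 5.25 and 3.48 FPKM in the CL rats and 4.11, 20.2 and 17.5 FPKM in the FL rats. Without FL2 the count of upregulated cycling markers became 6 of 6, beside 12.3% of all genes, and without any other rat 0, beside 4.59% to 6.47%. The upregulated count was 5 to 8 for stellate cell, 3 or 4 for macrophage and 0 or 1 for neutrophil markers with a rat left out. It became 0 for cholangiocyte markers without CL7, FL5 or FL12 and 2 without FL2, 0 for endothelial markers without any rat but FL2, and 2 for lymphocyte markers without FL12. Median scaling left 1 neutrophil marker upregulated and quantile normalization 0, and after either scaling the count was 0 for endothelial and cycling markers and 3 for macrophage markers, while for stellate cell markers it was 6 and 5. The part of these cell types in the differences of Adamts2, Adam10 and Adam17 was not tested.

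Promoter sequences of 9 of the 10 genes were found by symbol in the RefSeq table of build GRCr8, and Adamts5 was missing. The 250 bases before the annotated start are shown for Adamts2, Adam10 and Adam17, the 3 genes that rose, 5′ to 3′ on the strand of the gene. They lie at chr10:35421780-35422029 (plus strand), chr8:80226612-80226861 (plus strand) and chr6:46649345-46649594 (minus strand). Capitals mark matches on either strand to the GC box (GGGCGG) or the CCAAT box (CCAAT).
Adamts2: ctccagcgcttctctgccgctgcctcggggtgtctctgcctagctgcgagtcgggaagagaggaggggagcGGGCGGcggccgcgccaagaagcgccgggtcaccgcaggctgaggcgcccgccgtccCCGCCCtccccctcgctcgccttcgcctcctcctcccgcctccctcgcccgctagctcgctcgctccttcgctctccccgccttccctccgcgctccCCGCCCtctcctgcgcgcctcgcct
Adam10: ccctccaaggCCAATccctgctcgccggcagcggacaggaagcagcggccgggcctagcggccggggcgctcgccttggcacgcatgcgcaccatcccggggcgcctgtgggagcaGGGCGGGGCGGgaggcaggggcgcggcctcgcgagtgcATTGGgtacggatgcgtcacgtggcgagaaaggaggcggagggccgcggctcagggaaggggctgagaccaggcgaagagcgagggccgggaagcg
Adam17: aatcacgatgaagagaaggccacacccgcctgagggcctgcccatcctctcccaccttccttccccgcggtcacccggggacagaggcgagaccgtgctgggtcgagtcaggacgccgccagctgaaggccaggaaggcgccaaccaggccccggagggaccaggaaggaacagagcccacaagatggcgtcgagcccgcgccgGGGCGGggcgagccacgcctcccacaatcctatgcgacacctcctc

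Adamts2 held 3 GC boxes, Adam10 held 2 that overlap each other and 2 CCAAT boxes, and Adam17 held 1 GC box. A GC box was found in 8 of the 9 promoters and in 30.5% of 33469 rat promoters over the same 250 bases. CCAAT was found in 4 of 9 and in 34.0% of all promoters, the TATA box (TATAAA) in 1 of 9, that of Adamts1, and in 12.9%, and the AP-1 motif (TGANTCA) in 0 of 9 and in 6.34%. G and C made up 75.6% of the Adamts2, 74.4% of the Adam10 and 68.4% of the Adam17 sequence, beside a median of 51.2% over all promoters. A match is a description of letters and not a binding site.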

How the data were processed

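Total RNA of liver from 3 FL and 3 CL rats was depleted of ribosomal RNA before sequencing, and each rat gave 1 library. After trimming (FASTX-Toolkit) and alignment (TopHat2), the authors counted uniquely placed reads and deposited FPKM, for which no scaling between rats is stated. The genome named in the paper is human (GRCH38), whereas gene identifiers are from rat Ensembl, of a release not given in the sources used here. In the table, 2 further columns of values were not used because no sample carries their names.

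FPKM are not counts, so log2(FPKM + 0.1) was fitted with limma 3.58.1 in R 4.3.3, with a trend in the prior variance, over the 14864 genes averaging 0.1 FPKM or more. P-values were adjusted by Benjamini-Hochberg over these genes. Group values are means with SD, and standard errors and 95% intervals are those of limma. The fit was also run on simulated data, only as a check of the code, and nothing about these genes is read from it. No pair of libraries was a duplicate, as at most 2.54% of values were identical in a pair. Other calculations used Python 3.11.15 with pandas 2.3.3, numpy 2.4.6 and matplotlib 3.10.9.

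The members and lists were chosen with earlier results of these data known. Genes named were the 10 members, DEGs and the 3 most abundant of the remaining family, the 3 DEGs with the largest difference in each list, a fixed group (Timp1, Timp3, Timp2, Rhbdf2, Vcan, Tnf, Hbegf, Col1a1, Bmp1 and Pcolce) and the 3 genes most like a called member, and exceptions are stated. Further exceptions are Adamts3, Spp1 and Cd4, genes that led a marker list, and genes too low to test or not found by symbol. Adamts3, Spp1, Cd4, Acta2, Lrat and Reln are not in the tally over 45 named genes. The fit was repeated with pseudocounts of 1 and 0.01, without the filter, with a filter at 1 FPKM, after median scaling over 9201 genes, after quantile normalization, with no trend, with a robust prior, with no fold limit, and with each rat left out.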

Additional observations from a re-analysis of the deposited data

How the results depend on the processing

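Adamts2 was a DEG under all alternatives run. Among the 10 proteases the count of DEGs was 2 in limma without trend (with Adam8, beside 8.83% of all genes). This count was 3 without a fold limit (beside 16.9%) and otherwise stayed at 1. It was also 1 with any rat left out. Counts of downregulated genes were 0 throughout, for the 10 and for the 32. The count of 7 DEGs among the 32 became 4 after median scaling (beside 5.56% of all genes), 2 with a pseudocount of 1 (3.11%), 2 after quantile normalization (3.05%) and 12 without a fold limit (16.9%), and ranged from 3 to 9 with a rat left out (4.59% to 12.3%). In limma without trend it was 9, beside 8.83% of all genes. At an adjusted p under 0.05 in limma, 12 of the 32 genes rose, beside 16.9% of all genes. That count became 6 after quantile normalization and 5 to 14 with a rat left out. Shares of all genes at this limit are not given for those fits, so nothing is read from these counts about the family. The median log2 difference of the 10 was 0.20 after quantile normalization and ranged from 0.43 to 0.70 with a rat left out, and from 0.17 to 0.36 relative to all genes, against 0.14 with a pseudocount of 1 and 0.43 with a mean of at least 1 FPKM, a filter that Adamts2 and 7 other named genes passed only through their FL values. Quantile normalization turned Adamts4 to -0.34, Adamts5 to -0.23, Adamts9 to -0.14 and Adam12 to -0.49 and the hepatocyte marker Alb to 0.49, and median scaling turned Adam12 to -0.091. With a rat left out, Adamts4 ranged from -0.060 to 0.38 (-0.0060 without CL5) and Adam12 from -0.087 to 0.35. The cause was not tested. Over 45 named genes and their 620 alternative values, 549 kept direction and side of the DEG limits, 57 were no longer DEGs, 5 became DEGs and 9 reversed. With a mean of at least 1 FPKM only 6 of the 10 were tested, so genes of lower level have no value there. No paired analysis was possible, as the rats were divided at random between the groups and the paper states no pairing. The reads behind each value were unknown. Standard errors therefore rest on the spread between 3 rats per group and on the prior variance that limma takes from all genes tested. Values near 0.1 FPKM call for caution, but how certainty varied with level was not tested.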

Other observations

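Col1a2, which encodes the partner chain of Col1a1 in type I procollagen, was listed at 0.01, 0.02 and 0.01 FPKM in the CL rats and at 0.03, 0.18 and 0.16 FPKM in the FL rats, against up to 101 FPKM for Col1a1. It was not tested because its mean was below 0.1 FPKM, and this gene was named after its values were seen. The rat annotation behind the table was not given in the sources used here, and whether the listed FPKM stand for the level of the Col1a2 transcript was not tested.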
